A study of Mus musculus with 6 samples.

Results

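The 10 genes described here encode the D cyclins (Ccnd1, Ccnd2, Ccnd3), the kinases they activate (Cdk4, Cdk6), inhibitors of these or related kinases (Cdkn1b, Cdkn2a, Cdkn2b, Cdkn2c) and the retinoblastoma protein (Rb1). They were chosen by gene symbol, with earlier results of these data known. All 10 were among the 19713 genes of the deposited table. RNA sequencing covered mouse embryonic stem cells from C57Bl/6 blastocysts in 3 genotypes with 2 libraries each, numbered replicate 1 and replicate 2. WT cells were wild type, C54Y cells were homozygous for the missense change THAP1 C54Y (Thap1 C54Y/C54Y), and KO cells (labelled THAP1 -/- and Thap1 ΔExon2) carried a deletion of Thap1 exon 2. All 3 grew with irradiated mouse embryonic fibroblasts on gelatin-coated plates, in medium with 15% fetal calf serum and leukemia inhibitory factor at 1000 units per ml. The labels do not say whether the libraries of a genotype came from separate clones or cultures, so the spread behind the p-values may be technical. With replicate number in the model, that spread is how far the genotype differences disagreed between the 2 replicate numbers.

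THAP1 is a zinc finger transcription factor, and its mutations cause a form of inherited dystonia. D cyclins bind CDK4 and CDK6, and the active complexes phosphorylate RB1, which releases E2F factors and lets cells pass from G1 into S phase. Proteins of the INK4 family (from Cdkn2a, Cdkn2b and Cdkn2c) bind CDK4 and CDK6 and block their activity. p27, from Cdkn1b, belongs to the CIP/KIP family and acts mainly on cyclin E and cyclin A complexes with CDK2. Mouse embryonic stem cells are known for a short G1 phase, low D cyclin activity and high cyclin E-CDK2 activity, and D cyclins and CDK inhibitors increase as they differentiate.

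Recovered reads per library ranged from 31774656 to 46772996. Values are normalized counts, that is reads per gene divided by the library's size factor. Libraries of the same replicate number resembled each other more than libraries of the same genotype did. The first principal component, with 73.8% of the variance, parted replicate 1 from replicate 2. Each mutant was compared with WT within a replicate number. Thap1 had 433 and 701 normalized counts in WT (replicate 1, then replicate 2), 2253 and 2533 in C54Y, and 1975 and 1687 in KO, higher in both mutants (adjusted p = 0.00301 and 0.0018, limma with the block). A count over the whole gene does not test the loss of exon 2 or the missense change. The 8 embryonic stem cell markers were detected in every library and held 0.524% to 1.11% of normalized counts.

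In the KO cells, transcripts of all 3 D cyclins rose, and those of the kinase gene Cdk6, the inhibitor gene Cdkn1b and Rb1 fell. Cdkn2a rose as well, while Cdk4, Cdkn2b and Cdkn2c did not pass the test. Of the 10 genes, 7 were called between KO and WT (4 up and 3 down), where 16.3% of the 15287 tested genes were called (8.9% up and 7.41% down). Because the 10 were chosen with earlier results of these data known, this share and the median below describe them and do not test the set. A call means an adjusted p under 0.05 from limma with replicate number as a block, with Benjamini-Hochberg adjustment over all tested genes. Only the call of Ccnd3 held without each of the 6 libraries in turn, and that of Rb1 stood at the threshold (adjusted p = 0.0496, limma with the block). The calls of Cdkn2a and Rb1 were also lost in other settings given below. In the fit without the block limma called 0 of the 10 and 0 genes in all (0 of the 10 and 1049 or 6.86% of all genes at an unadjusted p under 0.05). The lowest adjusted p among the 10 was then 0.757, for Ccnd3. The median size of the log2 fold change, regardless of sign, was 0.65 over the 10 genes and 0.32 over all tested genes.

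Between C54Y and WT limma with the block called 0 of the 10, where 1.36% of tested genes were called. At an unadjusted p under 0.05 there were 3 of the 10, against 12.3% of tested genes, and edgeR and DESeq2 with the block also called 0. Leaving out either KO library, which changes the spread and not these values, brought 3 calls (Ccnd3, Cdkn1b and Cdkn2a), and 11.9% (without KO replicate 1) and 10.6% (without KO replicate 2) of tested genes were then called. Leaving out WT replicate 1 brought 1 call (Ccnd3), against 3.55% of tested genes. The C54Y and WT libraries did not overlap for 2 of the 10 (Cdk6 and Cdkn2c), as for 18% of tested genes. The C54Y values lay between those of WT and KO for 8 of the 10 genes in both replicate numbers. Ccnd1, Ccnd2, Ccnd3 and Cdkn2a followed the order WT, C54Y, KO upward, as did 14.3% of tested genes. Cdk6, Cdkn1b, Cdkn2b and Rb1 followed it downward, as did 11.2% of tested genes. Both mutants were set against the same WT libraries.

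**Figure D1:**
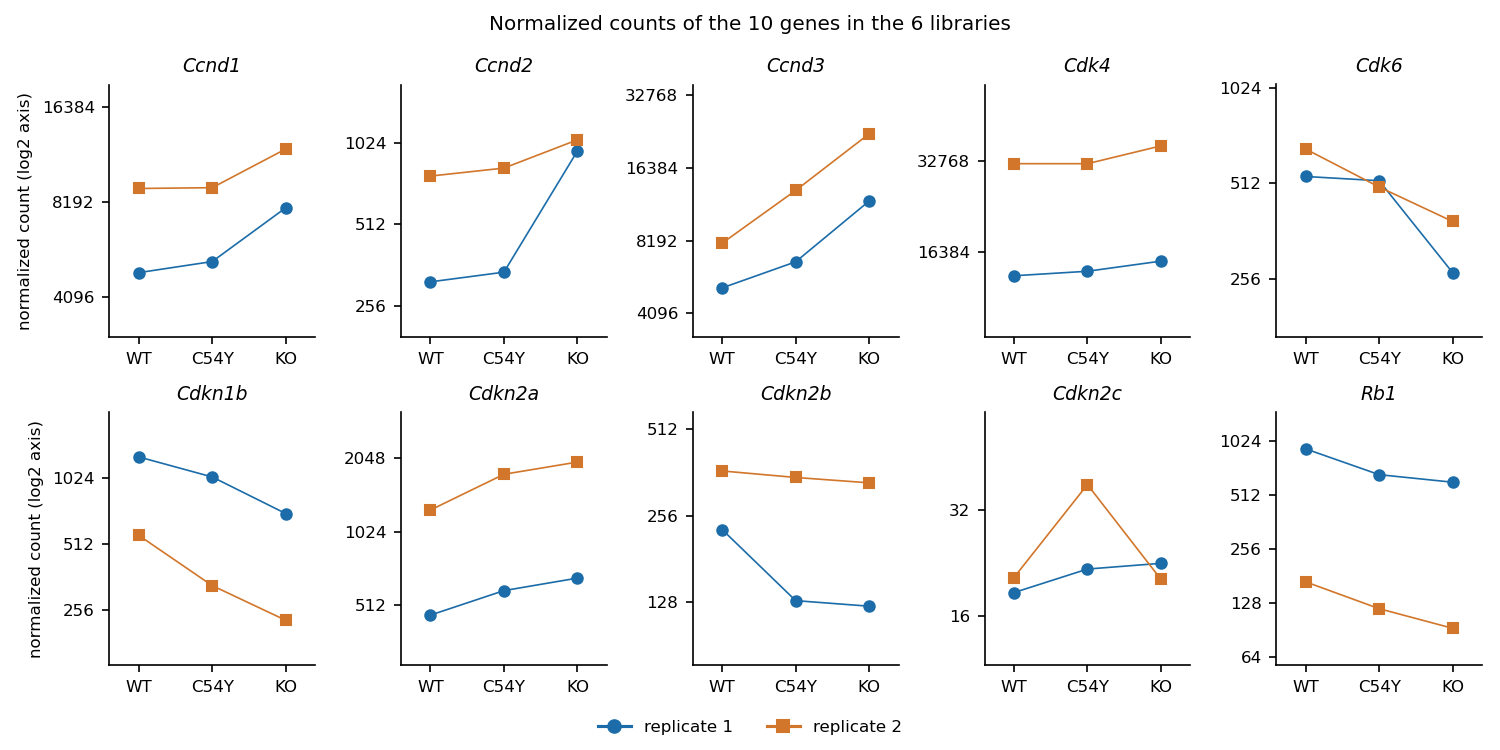
Normalized counts of each gene in each library on a log2 axis, with circles for replicate 1 and squares for replicate 2. Lines join libraries of the same replicate number and are no time course. Ccnd3 goes up and Cdkn1b down from WT through C54Y to KO in both replicate numbers, while Rb1 differs more between the replicate numbers than between the genotypes.

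Promoter sequences were taken from RefSeq (GRCm38.p6), as 250 bases before to 50 after each start, and 7 of the 10 genes had an entry. Ccnd1, Ccnd2 and Rb1 had none. The windows of the 4 called genes with an entry are shown, 5′ to 3′ on the strand of the gene, because these are the genes whose transcripts changed in KO. Capitals mark matches on either strand to 4 motifs. They are TNNGGGCA, which holds the core bound by the human THAP1 zinc finger, TTTNNCGC (a loose E2F pattern), CACGTG (E-box, bound by MYC and related factors) and CCAAT (bound by NF-Y). N stands for any base. In all 32851 windows of the same length, 13.9%, 5.17%, 7.15% and 37.4% hold these motifs. No marked matches overlap.
Ccnd3 upstream start, chr17:47504801-47505100, plus strand: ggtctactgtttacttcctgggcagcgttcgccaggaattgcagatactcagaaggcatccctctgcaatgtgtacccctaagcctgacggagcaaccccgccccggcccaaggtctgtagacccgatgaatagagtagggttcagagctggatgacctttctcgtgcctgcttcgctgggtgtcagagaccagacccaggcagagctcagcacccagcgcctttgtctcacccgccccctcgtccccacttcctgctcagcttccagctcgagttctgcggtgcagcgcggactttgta
Ccnd3 downstream start, chr17:47593217-47593516, plus strand: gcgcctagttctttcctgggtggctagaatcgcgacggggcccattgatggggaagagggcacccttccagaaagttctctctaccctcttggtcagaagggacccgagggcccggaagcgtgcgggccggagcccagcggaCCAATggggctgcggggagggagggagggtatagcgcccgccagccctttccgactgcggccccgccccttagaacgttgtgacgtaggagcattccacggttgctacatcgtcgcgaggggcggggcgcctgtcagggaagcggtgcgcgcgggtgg
Cdk6, chr5:3343643-3343942, plus strand: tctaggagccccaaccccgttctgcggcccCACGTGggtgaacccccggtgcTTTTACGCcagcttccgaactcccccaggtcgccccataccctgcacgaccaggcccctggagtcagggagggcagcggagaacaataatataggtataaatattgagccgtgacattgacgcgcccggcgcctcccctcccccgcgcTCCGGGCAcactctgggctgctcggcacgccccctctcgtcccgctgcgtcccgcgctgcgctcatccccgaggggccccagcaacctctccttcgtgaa
Cdkn1b, chr6:134920151-134920450, plus strand: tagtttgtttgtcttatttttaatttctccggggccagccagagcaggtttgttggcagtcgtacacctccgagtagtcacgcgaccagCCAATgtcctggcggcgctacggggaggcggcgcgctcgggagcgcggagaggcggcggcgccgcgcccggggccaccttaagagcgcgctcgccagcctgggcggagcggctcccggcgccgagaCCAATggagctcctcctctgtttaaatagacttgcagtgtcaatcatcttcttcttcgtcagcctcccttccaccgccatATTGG
Cdkn2a upstream start, chr4:89294570-89294869, minus strand: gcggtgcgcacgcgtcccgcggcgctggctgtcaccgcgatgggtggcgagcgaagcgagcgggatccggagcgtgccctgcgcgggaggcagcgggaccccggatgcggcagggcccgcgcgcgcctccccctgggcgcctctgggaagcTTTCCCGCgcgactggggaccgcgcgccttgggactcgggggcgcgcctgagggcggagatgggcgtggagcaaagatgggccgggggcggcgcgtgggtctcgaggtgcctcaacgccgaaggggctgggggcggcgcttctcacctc
Cdkn2a downstream start, chr4:89282143-89282442, minus strand: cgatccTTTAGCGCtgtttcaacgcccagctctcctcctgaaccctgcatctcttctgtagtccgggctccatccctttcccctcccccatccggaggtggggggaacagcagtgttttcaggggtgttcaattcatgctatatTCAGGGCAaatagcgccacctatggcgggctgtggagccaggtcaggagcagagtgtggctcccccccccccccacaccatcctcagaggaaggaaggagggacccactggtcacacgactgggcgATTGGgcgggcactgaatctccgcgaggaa

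The THAP1 core letters occurred in the Cdk6 window (TCCGGGCA, first base at -50 from the start) and in the downstream Cdkn2a window (TCAGGGCA, first base at -106). The Cdk6 transcript fell and that of Cdkn2a rose in KO. The letters were not in the windows of Ccnd3 and Cdkn1b, whose calls had the lowest adjusted p. Both Cdkn2a windows held a match to the loose E2F pattern, TTTCCCGC at -99 from the upstream and TTTAGCGC at -244 from the downstream start. Cdkn1b held 3 CCAAT matches. Cdk4, which was not called, held 4 E-boxes. A match in these letters is a description of the window and not evidence of binding.

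Ccnd3, one of the 3 D cyclin genes, had the lowest adjusted p and the largest log2 fold change of the 10 genes. It had 5216 and 7992 normalized counts in WT cells, 6688 and 13211 in C54Y cells and 11939 and 22670 in KO cells. Both KO libraries lay above both WT libraries, and C54Y lay between WT and KO within each replicate number. The log2 fold change of KO against WT was 1.35 ± 0.14 (± SE, limma with the block, adjusted p = 0.000788), which is 2.55-fold, with 1.19 in replicate 1 and 1.5 in replicate 2. Ccnd3 was the only one of the 7 called genes whose call held without each of the 6 libraries in turn, with a log2 fold change of 1.18 to 1.52. In C54Y it stood at 0.54 above WT and was not called (adjusted p = 0.115, limma with the block). Its 95% interval in C54Y ran from 0.23 to 0.85. The strand setting of the counting is not given in the sources used here, and 361 exon bases of Ccnd3 overlap Bysl, a ribosome assembly gene on the opposite strand (0.40 in KO, adjusted p = 0.0818, limma with the block). Ccnd3-ps, a processed pseudogene, matches 881 bases at 96.3% identity, and how reads of such copies were counted is not known.

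Ccnd1, the D cyclin gene that answers to many growth factor signals, had 4891 and 9031 normalized counts in WT cells, 5303 and 9083 in C54Y cells and 7842 and 12038 in KO cells. KO was highest within each replicate number, while KO replicate 1 lay below WT replicate 2, so the groups overlapped. The log2 fold change in KO was 0.55 ± 0.13 (limma with the block, adjusted p = 0.0244). Leaving out WT replicate 1 (adjusted p = 0.168, limma with the block), WT replicate 2 (0.0558) or C54Y replicate 2 (0.0676) ended the call. C54Y differed from WT by 0.06, with a 95% interval from -0.24 to 0.36. Oraov1 (LTO1), on the opposite strand, shares 1100 exon bases with Ccnd1 and stood at 0.20 in KO (adjusted p = 0.528, limma with the block).

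Ccnd2, the third D cyclin gene, had 314 and 771 normalized counts in WT cells, 341 and 825 in C54Y cells and 954 and 1049 in KO cells. Both KO libraries lay above all others, and WT and C54Y were close together within each replicate number. The log2 fold change in KO was 1.02 ± 0.28 (limma with the block, adjusted p = 0.0403), but it was 1.6 in replicate 1 and 0.44 in replicate 2. Without KO replicate 1 it was 0.45 (adjusted p = 0.0754, limma with the block), and without WT replicate 1 it was 0.73 (adjusted p = 0.132). In C54Y the difference was 0.11 (95% interval -0.53 to 0.75).

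Levels of different genes were compared as normalized counts per kb of the longest principal transcript in GENCODE M21. Cdk4 was highest of the 10, with a mean of 11136 ± 6371 normalized counts per kb in WT (SD, n = 2). Ccnd3 (3126 ± 929) and Ccnd1 (1861 ± 783) followed, and their order is reversed if the length of all annotated exons is used. Cdkn2a (964 ± 625) came next. Cdkn2b (214 ± 69.9), Cdkn1b (202 ± 112), Rb1 (118 ± 115) and Ccnd2 (85.7 ± 51.1) followed and did not differ from their neighbours beyond their SDs. Cdk6 (51.9 ± 7.30) and Cdkn2c (7.94 ± 0.548) had the lowest means. The order from Cdkn2b to Cdk6 differed between the WT libraries, with Rb1 at 199 per kb in replicate 1 and at 36.2 in replicate 2, where it lay below Cdk6 (57.1).

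The 3 D cyclins together had 3826 and 6319 normalized counts per kb in WT cells, 4637 and 8811 in C54Y cells and 7898 and 14114 in KO cells. Ccnd3 made up 64.5% and 59.9% of this sum in WT cells, 68.3% and 71.0% in C54Y cells and 71.5% and 76.0% in KO cells. Its share was thus higher in both KO libraries than in every WT library, and the share of Ccnd1 was lower. With the length of all annotated exons the share of Ccnd3 was 35.7% and 31.3% in WT cells, 39.6% and 42.7% in C54Y cells and 43.5% and 49.2% in KO cells, in the same order of genotypes. Ccnd2 stayed between 1.16% and 1.93% of the sum. These shares were not tested.

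**Figure D2:**
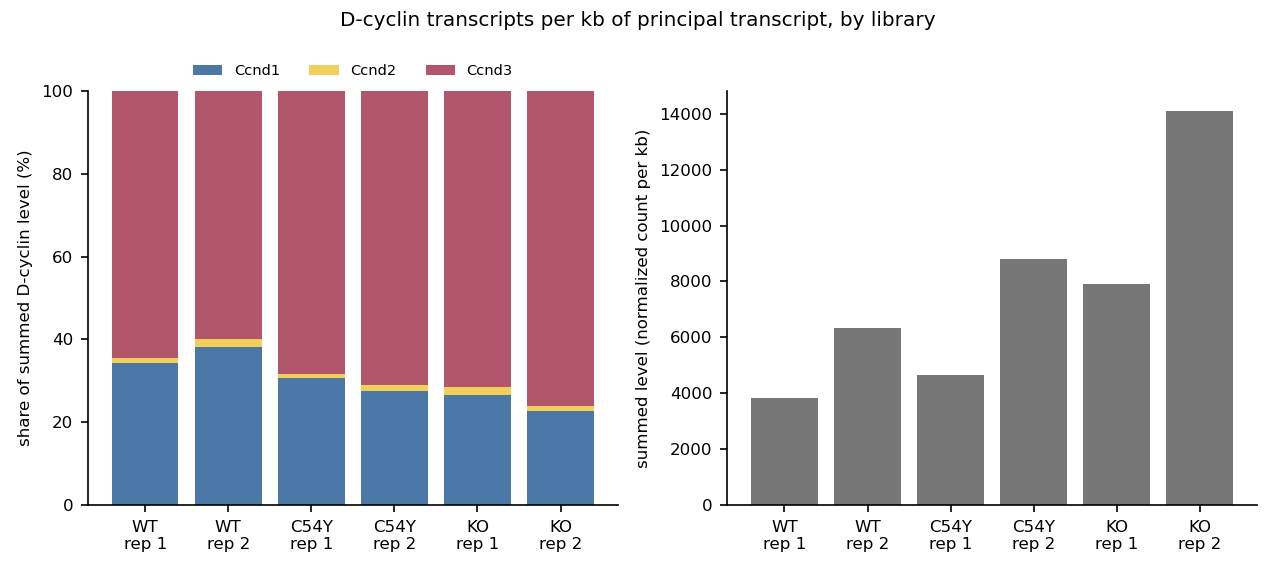
Left, the share in percent of each D cyclin in the summed D cyclin level of a library, in normalized counts per kb of principal transcript. Right, the sum itself, which in KO is 7898 (replicate 1) and 14114 (replicate 2) against 3826 and 6319 in WT.

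Cdk4, the main D cyclin partner in these libraries by level, had 13613 and 32109 normalized counts in WT cells, 14092 and 32107 in C54Y cells and 15227 and 36794 in KO cells. The libraries split by replicate number, and the genotypes lay close together within it. The log2 difference of KO from WT was 0.18 ± 0.11 (limma with the block, adjusted p = 0.303) with a 95% interval from -0.07 to 0.42. In C54Y it was 0.02, with a 95% interval from -0.22 to 0.27. Tspan31 overlaps 641 exon bases of Cdk4 on the opposite strand and stood at 0.20 in KO (adjusted p = 0.37, limma with the block).

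Cdk6, the other D cyclin-dependent kinase, had 539 and 658 normalized counts in WT cells, 522 and 499 in C54Y cells and 268 and 388 in KO cells. The libraries of the 3 genotypes did not overlap, with KO lowest and WT highest. Its log2 fold change in KO was -0.88 ± 0.21 (limma with the block, adjusted p = 0.0251), with -1.0 in replicate 1 and -0.76 in replicate 2. It was no longer called when WT replicate 1 (adjusted p = 0.0691, limma with the block) or WT replicate 2 (0.114) was left out. In C54Y it stood at -0.22 (95% interval -0.71 to 0.26). Transcripts of 4 other annotated loci match stretches of Cdk6 at 90.1% to 92.3% identity. Per kb, Cdk6 made up 0.700% and 0.363% of the Cdk4 and Cdk6 sum in WT and 0.312% and 0.188% in KO.

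Of the 10 genes, 3 (Ccnd2, Ccnd3 and Cdk6) had KO and WT libraries that did not overlap, and 27.2% of tested genes did so. In Cdkn2a and Rb1 the gap between the replicate numbers was wider than that between KO and WT throughout. In Ccnd1 and Cdkn1b it was not wider in every case. Ccnd1 differed by 0.68 on the log2 scale between KO and WT in replicate 1, and by 0.62 between the KO libraries. Cdkn1b differed by -1.28 between KO and WT in replicate 2, and by -1.19 between the WT libraries. Within the replicate numbers KO and WT differed in the same direction in 9 of the 10, against 65.6% of tested genes, the exception being Cdkn2c.

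Cdkn1b, which encodes p27, had 1278 and 560 normalized counts in WT cells, 1035 and 330 in C54Y cells and 704 and 229 in KO cells. Within each replicate number the counts went down from WT through C54Y to KO, and KO replicate 1 lay above WT replicate 2. The log2 fold change in KO was -1.07 ± 0.20 (limma with the block, adjusted p = 0.00865), with -0.86 in replicate 1 and -1.28 in replicate 2. Without WT replicate 2 it was not called (log2 fold change -0.85, adjusted p = 0.0818, limma with the block). In C54Y the difference was -0.53 and was not called (adjusted p = 0.305, limma with the block, 95% interval -0.98 to -0.08). The summed D cyclin level per kb was 13.6 and 51.4 times that of Cdkn1b in WT cells, 20.4 and 122 times in C54Y cells and 51.0 and 280 times in KO. This ratio was higher in KO cells than in WT within each replicate number, and WT replicate 2 and KO replicate 1 had nearly the same value. It follows from the higher D cyclin and lower Cdkn1b counts already given, and it was not tested.

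Cdkn2a encodes the INK4 protein p16 and, from another first exon and reading frame, the ARF protein that binds MDM2 and so stabilizes p53. Counts over the gene do not separate the transcripts. It had 467 and 1258 normalized counts in WT cells, 588 and 1763 in C54Y cells and 662 and 1978 in KO cells, higher in replicate 2 for every genotype. The log2 fold change in KO was 0.58 ± 0.16 (limma with the block, adjusted p = 0.0424). C54Y stood 0.41 above WT and was not called (adjusted p = 0.341, limma with the block). The KO call was lost with TMM factors (0.50, adjusted p = 0.0709 in limma and 0.0695 in edgeR), without the filter on low counts (0.0548) and without any of the 4 WT and C54Y libraries (adjusted p from 0.106 to 0.339, limma with the block).

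Cdkn2b, which encodes the INK4 protein p15 and lies next to Cdkn2a on chromosome 4, had 229 and 367 normalized counts in WT cells, 130 and 348 in C54Y cells and 124 and 333 in KO cells. Both mutants were lower than WT in replicate 1 and nearly level with it in replicate 2. The difference was -0.51 in KO (adjusted p = 0.233, limma with the block) and -0.44 in C54Y cells (adjusted p = 0.591), and neither was called. The neighbouring Cdkn2a and Cdkn2b thus stood at log2 differences of opposite sign in KO, and only that of Cdkn2a was called.

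Cdkn2c, which encodes the INK4 protein p18, was near the lower limit of the table, with 18.7 and 20.6 normalized counts in WT cells, 21.8 and 37.7 in C54Y cells and 22.6 and 20.4 in KO cells. These rest on 16 to 32 reads per library. A difference of KO from WT was not detectable at this depth (0.12, 95% interval -0.80 to 1.03).

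Rb1, the substrate of the D cyclin kinases, had 929 and 169 normalized counts in WT cells, 667 and 120 in C54Y cells and 605 and 92.9 in KO cells. The gap between replicate numbers (-2.45 in WT, -2.46 in C54Y and -2.68 in KO on the log2 scale) was wider than that between genotypes. The log2 fold change in KO was -0.73 ± 0.21 (limma with the block, adjusted p = 0.0496). That call stood at the threshold, and it was lost with a pseudocount of 1 (adjusted p = 0.0501, limma with the block) or 0.5 (0.0507), without the filter on low counts (0.0615), with a mean of at least 50 required (0.0516) and without any of the 4 WT and C54Y libraries (0.0950 to 0.278). In C54Y the value was -0.48 in replicate 1 and -0.49 in replicate 2, and the mean difference was not called (adjusted p = 0.409, limma with the block). Exons of Lpar6, which encodes a lysophosphatidic acid receptor, and of Rcbtb2 overlap those of Rb1 on the opposite strand by 408 and 488 bases. Lpar6 fell by 2.49 (adjusted p = 0.000678, limma with the block) and Rcbtb2 by 1.11 (adjusted p = 0.0028) on the log2 scale in KO. Without a known strand setting, reads in the shared bases cannot be told apart.

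**Figure D3:**
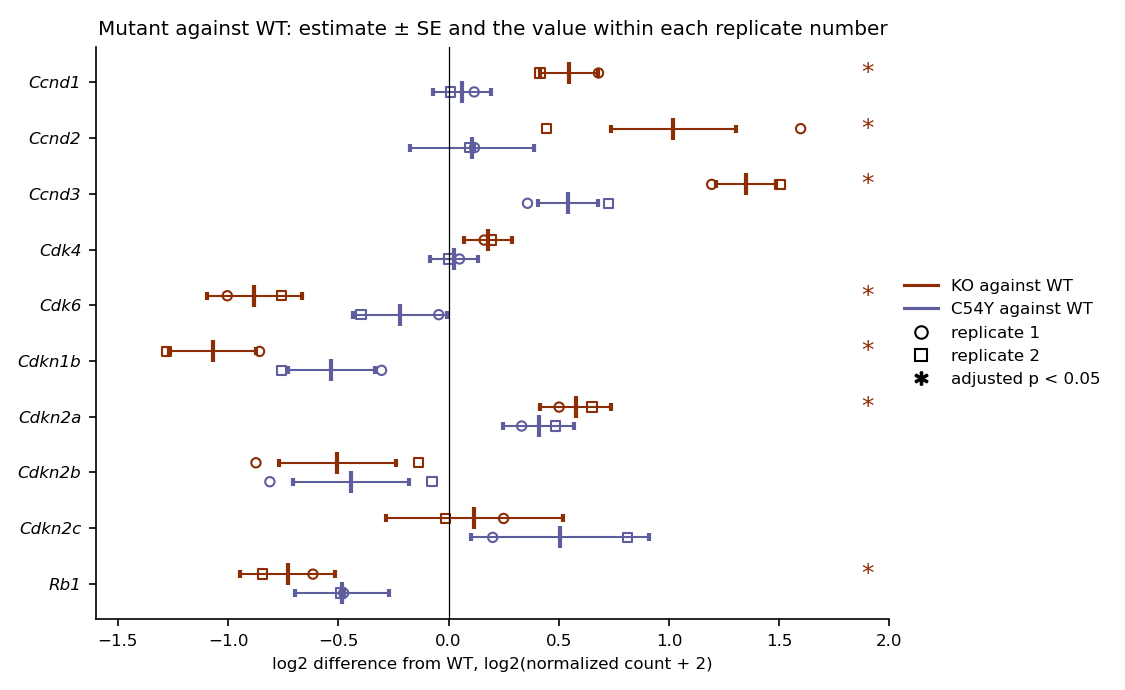
Log2 difference from WT of each gene in KO (brown) and C54Y (purple). Vertical ticks with bars are limma estimates ± SE, circles and squares are the differences within replicate 1 and replicate 2, and stars mark an adjusted p under 0.05. The 7 stars all belong to KO, and in the 10 genes the C54Y estimates range from -0.53 (Cdkn1b) to 0.54 (Ccnd3).

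KO was also compared directly with C54Y, that is the exon 2 deletion with the missense change. None of the 10 genes was called by limma with the block, where 0.19% of tested genes were called. At an unadjusted p under 0.05 there were 5 of the 10, against 15.4% of tested genes. With the block edgeR called 0 of the 10, and DESeq2 called 2, against 3.14% of the genes it gave an adjusted p. The libraries did not overlap for 2 of the 10 (Ccnd2 and Cdk6), as for 17.5% of tested genes. Without KO replicate 2 limma called 4 (Ccnd1, Ccnd2, Ccnd3 and Cdk6), where 18.5% of tested genes were called. It called 3 (the D cyclins) without WT replicate 1, against 5.4% of tested genes, and 2 (Ccnd2 and Ccnd3) without WT replicate 2, against 3.35%. Without KO replicate 1 it called 1 (Ccnd3), against 5.97%. Ccnd3 stood at 0.81 ± 0.14 (limma with the block, adjusted p = 0.0586), 0.84 in replicate 1 and 0.78 in replicate 2. DESeq2 called it (adjusted p = 0.0012) along with Ccnd2 (0.95, adjusted p = 0.0332). Cdk6 (-0.66), Cdkn1b (-0.54) and Ccnd1 (0.49) had 95% intervals that did not include 0 before adjustment. A difference between the mutants is therefore not shown for these genes by limma with the block, nor is its absence.

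The rest of the pathway was read from 5 lists with 50 genes, all of them tested. In KO 5 of the 50 were called, and in C54Y 1, where 16.3% and 1.36% of all tested genes were called. None of the 10 other G1/S cyclins, CDKs and activators was called in KO or C54Y, and their median was 0.08 in KO against 0.03 over all genes. Among them Cdk2, the partner of cyclins E and A, stood at 0.41 (adjusted p = 0.0789, limma with the block), and Ccne1, which encodes cyclin E1, at 0.30 (adjusted p = 0.137). Ccne1 had 6116 and 15803 normalized counts in WT and 7961 and 18433 in KO. Ccna1 (-0.98, adjusted p = 0.158) rests on 8.91 to 29.6 normalized counts, and the CDK-activating phosphatase gene Cdc25a stood at 0.23 (adjusted p = 0.327). With 1 library left out, Ccna1 ran from -1.47 (without KO replicate 1) to -0.50 (without KO replicate 2), and Cdc25a from 0.088 (without WT replicate 1) to 0.36 (without WT replicate 2).

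Of the 3 other CDK inhibitors, Cdkn1c, which encodes the CIP/KIP protein p57 and is imprinted, fell in both mutants. It had 927 and 2073 normalized counts in WT cells, 510 and 872 in C54Y cells and 483 and 1317 in KO cells. The mutants were lower than WT within both replicate numbers, by 1.05 ± 0.20 on the log2 scale in C54Y (limma with the block, adjusted p = 0.0411) and by 0.80 ± 0.20 in KO (adjusted p = 0.027). Leaving out WT replicate 1 (adjusted p = 0.0608, limma with the block) or WT replicate 2 (0.115) ended the call in KO, and leaving out WT replicate 2 (0.11) or C54Y replicate 2 (0.918) that in C54Y. Cdkn1a, which encodes p21, stood at -0.32 (adjusted p = 0.287, limma with the block) with -0.67 in replicate 1 and 0.03 in replicate 2. Cdkn2d, the fourth INK4 gene, stood at 0.21 (adjusted p = 0.725) on 29.9 to 62.4 normalized counts.

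Of the 12 pocket protein, E2F and DP genes, 1 fell in KO and 0 rose, with a median of 0.13. Over all tested genes 7.41% fell and 8.9% rose, so this count is near the share of all genes. E2f7, which encodes an atypical E2F that represses E2F targets, went from 1371 and 842 normalized counts in WT to 781 and 559 in KO (-0.70 ± 0.17, adjusted p = 0.0247, limma with the block). The fall was not called if WT replicate 1 (adjusted p = 0.172, limma with the block), WT replicate 2 (0.112) or C54Y replicate 1 (0.0515) was left out. The activator genes E2f1 (0.49, adjusted p = 0.0522) and E2f2 (0.66, adjusted p = 0.0797) and the pocket protein gene Rbl2 (0.47, adjusted p = 0.243) were not called by limma with the block. None of the 12 was called in C54Y (median 0.14).

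None of the 12 genes for turnover of D cyclins and p27 was called in KO (median 0.09) or in C54Y (median 0.03) by limma with the block. Over all tested genes 16.3% were called in KO and 1.36% in C54Y. Ddb1, a CUL4 adaptor, had the smallest adjusted p (0.29, adjusted p = 0.111). Skp1a (0.28), Cul4a (-0.29) and Fbxo31 (0.24), which encode ubiquitin ligase subunits, had adjusted p of 0.224, 0.234 and 0.345 in limma with the block.

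Of the 13 Polycomb, demethylase and Arf axis genes, 2 rose and 1 fell in KO, with a median of 0.15, where 8.9% of tested genes rose and 7.41% fell. The Polycomb gene Cbx2 rose by 0.58 ± 0.16 (limma with the block, adjusted p = 0.0372) and Trp53, which encodes p53, by 0.46 ± 0.13 (adjusted p = 0.0456). Both calls were lost with TMM factors (adjusted p = 0.0565 and 0.101, limma with the block) and without any of the 4 WT and C54Y libraries (0.0931 to 0.303 for Cbx2 and 0.0579 to 0.243 for Trp53). That of Trp53 was also lost without KO replicate 2 (0.0875), without the filter (0.0525) and with DESeq2 (0.0645). Mdm2, the ubiquitin ligase gene that opposes p53, went from 7382 and 3114 normalized counts in WT to 5968 and 1713 in KO (-0.58 ± 0.17, adjusted p = 0.0456, limma with the block). Its call was lost without the filter (0.0513), WT replicate 2 (0.344), either C54Y library (0.06 and 0.073) or KO replicate 2 (0.0644). Cbx8 stood at 0.85 (adjusted p = 0.147) on 16.4 to 43.3 normalized counts. In C54Y none of the 13 was called, with Mdm2 at -0.63 (adjusted p = 0.134).

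**Figure D4:**
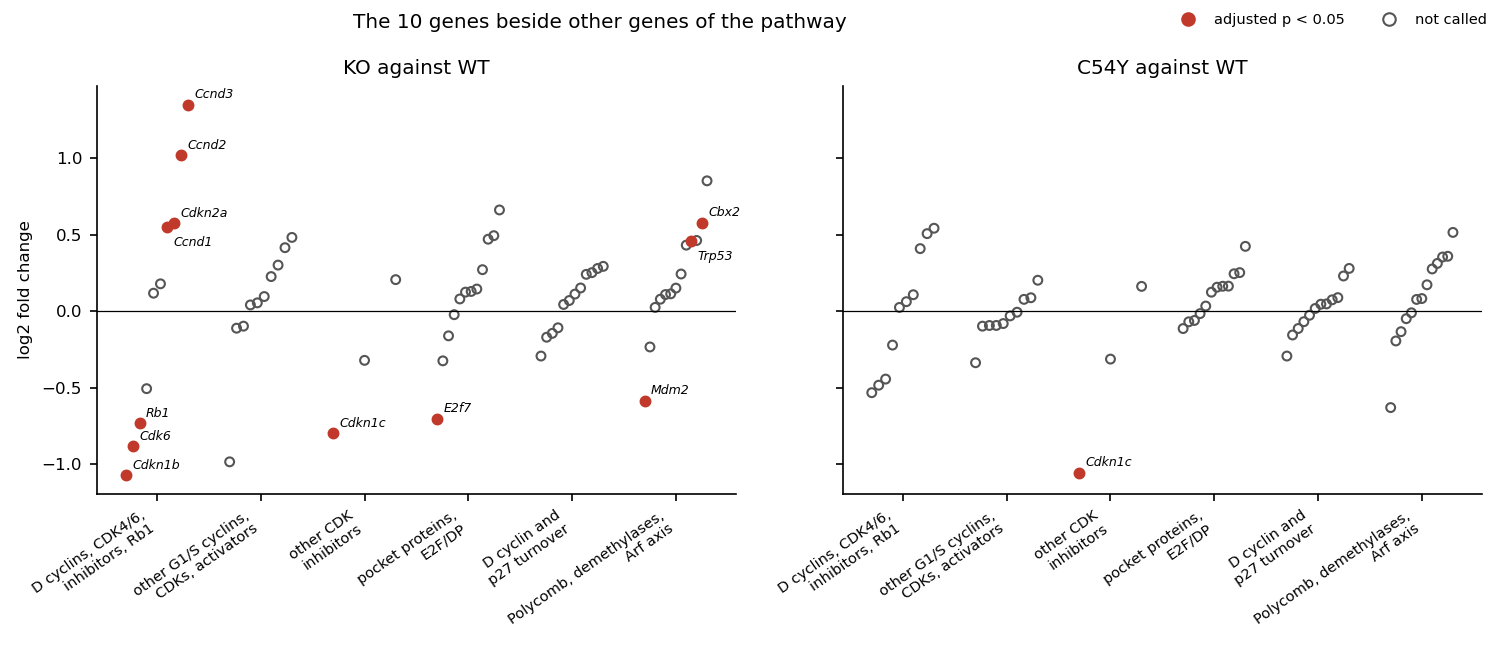
Log2 fold change against WT in KO (left) and C54Y (right) for the 10 genes and for the 5 other lists, 1 point per gene, filled where the adjusted p is under 0.05. In KO 7 of the 10 genes are filled and 5 of the 50 others, and in C54Y the filled gene is Cdkn1c. Over all tested genes 16.3% were called in KO and 1.36% in C54Y. The 10 genes and the lists were chosen with earlier results of these data known, so their shares are descriptions and no test.

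The genes whose pattern was most like that of Ccnd3 were Zfp296, 2810006K23Rik and Spc24. Their Pearson correlations with Ccnd3 over the 6 libraries were 0.999 each, after the mean of each replicate number was subtracted, and 103 tested genes exceeded 0.99. With 3 genotypes in 2 replicate numbers the values share few independent points and are given as a description. Zfp296, a zinc finger gene, rose by 0.92 in KO (adjusted p = 0.00578, limma with the block) and Spc24, a kinetochore gene, by 0.56 (adjusted p = 0.0266), while 2810006K23Rik stood at 0.24 (adjusted p = 0.401).

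Marker sums of other cell types differed between genotypes and between replicate numbers, and D cyclin and inhibitor genes are also expressed in such cells. In bulk RNA, fewer cells of a type and less RNA per cell cannot be told apart. The 24 fibroblast markers summed to 17439 and 37642 normalized counts in WT cells, 13644 and 44571 in C54Y cells and 4159 and 40700 in KO cells. KO replicate 1 had the lowest sum. Much of each sum came from single genes. In replicate 1 Tagln had 9022 normalized counts in WT, 6106 in C54Y and 393 in KO. Acta2 was the largest marker in replicate 2 of every genotype. Without the largest marker of each library, the replicate 1 sums were 8416 in WT, 7538 in C54Y and 3595 in KO. Those of replicate 2 were 26283, 29583 and 25954. Between KO and WT, Ccnd1, Ccnd2, Cdk6, Cdkn2b and Cdkn2c differed more in replicate 1. Ccnd3, Cdk4, Cdkn1b, Cdkn2a and Rb1 differed more in replicate 2. Cdk4 was nearly level (0.16 in replicate 1 and 0.20 in replicate 2), and Cdkn2c rests on 16 to 32 reads per library. Cdkn2b was similarly low in replicate 1 of KO and C54Y (124 and 130 normalized counts). Whether fibroblast content bears on any of these differences was not tested. Of the 22 tested fibroblast markers 0 rose and 2 fell in KO (median -0.57) and 0 rose and 1 fell in C54Y (median 0.03), with Pdgfra, also an endoderm marker, among those that fell in both. The share that fell in KO was near that of all tested genes, of which 7.41% fell and 8.9% rose. In C54Y 1.36% of all tested genes were called. Lum was at 0 in 5 of the 6 libraries and Fap in 3.

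The 15 markers of primitive or parietal endoderm summed to 80183 and 48579 in WT cells, 45087 and 39011 in C54Y cells and 44778 and 42219 in KO cells, and none was at 0. Of these, 12 fell in KO (median -1.89) and 9 in C54Y (median -1.39), with 0 up. Over all tested genes 8.9% rose and 7.41% fell in KO, and 1.36% were called in C54Y, which is the background for each marker count here. Neural markers had 2 up and 3 down of 9 tested in KO (median -0.94) and none called in C54Y (median -0.28). Their sums were 10500 and 8212 in WT cells, 9784 and 7921 in C54Y cells and 6175 and 8762 in KO cells. In replicate 2 Tubb3, which rose in KO, held 3723 of the sum in WT, 4569 in C54Y and 6419 in KO. Without Tubb3 the replicate 2 sums were 4490 in WT, 3353 in C54Y and 2343 in KO. Mesoderm markers had 1 up and 4 down of 8 tested in KO (median -1.71) and none called in C54Y (median -0.61), with sums of 852 and 730 in WT cells, 620 and 604 in C54Y cells and 354 and 421 in KO cells. Embryonic stem cell markers had 5 up and 0 down of 8 in KO (median 0.70) and 1 up in C54Y (median 0.21). The part of these cells in the values of the 10 genes was not tested.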

How the data were processed

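Per the submitters' processing notes, CASAVA, Trimmomatic, TopHat2 2.1.0, HTSeq and DESeq2 were used with the mouse build mm9. Strand setting, annotation and filters are not given in the sources used here. The deposited values are a signal, namely normalized counts of genes by library. They equal whole reads over 1 size factor per library (100% of values, tolerance 1e-06), and those reads served the count tests.

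Of 19713 genes, 15287 reached 10 normalized counts in 2 or more libraries and were tested. The model was limma (version 3.58.1, R 4.3.3, trend and robust options) on the log2 of normalized count plus 2, with genotype and replicate number as terms and all 6 libraries. P-values were adjusted by Benjamini-Hochberg over all tested genes, with a threshold of 0.05. Fold changes are on this scale and understate those of low genes. The block was in the planned model because mutants are compared with WT within replicate numbers. Same-numbered libraries deviated together from their group means (correlations of 0.907, 0.869 and 0.895 across genes), so the numbers were taken to pair the samples, though the labels do not say what they mark. Residual degrees of freedom were 2 with the block and 3 without.

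Alternatives used edgeR 4.0.16 and DESeq2 1.42.0 on the recovered reads, other pseudocounts, filters and scaling, and 1 library left out. Scripts were tested on simulated data. Lengths and overlaps came from GENCODE M21 (GRCm38), matched by symbol. The members and lists were chosen with earlier results of these data known. All 10 genes were named, with up to 4 genes per list by smallest adjusted p, and the 3 genes most like the one with the smallest adjusted p in KO.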

Additional observations from a re-analysis of the deposited data

How the results depend on the processing

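In 14 alternative settings the 10 genes gave 417 values over the 3 comparisons, of which 360 kept their direction and side of the threshold, 30 lost and 19 gained a call, and 8 changed sign. The 8 were not called in any setting. With 1 library left out, C54Y against WT ran from -0.031 (without WT replicate 1) to 0.16 in Ccnd1, from -0.19 (without WT replicate 1; -0.17 without C54Y replicate 2) to 0.40 in Ccnd2, from -0.0088 (without C54Y replicate 1) to 0.059 in Cdk4, and from -0.46 to 0.017 (without C54Y replicate 2) in Cdk6. KO against C54Y ran from -0.25 to 0.12 (without C54Y replicate 2 or KO replicate 1) in Cdkn2b, and KO against WT from -0.17 (without KO replicate 1) to 0.40 in Cdkn2c. Outside the 10, Cdkn1a in KO ran from -0.64 to 0.0027 (without KO replicate 1) and E2f7 in C54Y from -0.16 to 0.026 (without C54Y replicate 2). The cause was not tested.

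Without the replicate block limma called 0 genes in KO against WT, 0 in C54Y against WT and 0 in KO against C54Y, and 0 of the 10 in KO against WT. The main limma fit, with the replicate block, called 2494, 208 and 29 genes in these comparisons. DESeq2 with the block called 486 in C54Y against WT and 452 in KO against C54Y, with 2 of the 10 in the latter. With 1 library left out, the counts of all genes ran from 1749 to 4861 (KO against WT), 69 to 1818 (C54Y against WT) and 7 to 2831 (KO against C54Y), and those of the 10 genes from 2 to 7, 0 to 3 and 0 to 4. Of the 10, 2 were called in KO without WT replicate 1 (12.2% of all tested genes) or WT replicate 2 (11.4%), and 4 without C54Y replicate 2 (14.3%). A library left alone in its group adds nothing to the residual spread, and 1 residual degree of freedom then remains. Of the 50 pathway genes, 0 (without WT replicate 2, against 11.4% of all tested genes) to 14 (without KO replicate 2, against 31.8%) were called in KO, and 3 without the filter, with TMM scaling or by edgeR. TMM factors moved the median of all genes in KO by -0.08.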
